A study of Mus musculus with 6 samples.

Results

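The genes described here are 39 genes of the machinery that carries proteins into the endoplasmic reticulum (ER) and processes them there. They were taken by symbol from a list of this pathway's genes drawn up with earlier results of these data known, and all 39 were found among 55487 gene rows. They fall into 9 groups: the Sec61 channel, its partners Sec62, Sec63 and Tram1, the translocon-associated protein (TRAP) complex, the signal recognition particle (SRP), the SRP receptor, signal peptidase, the oligosaccharyltransferase (OST), the ER membrane protein complex (EMC), and ribosome-binding and ER-shaping proteins. RNA was sequenced from hepatocytes, the liver cells that make most plasma proteins, of mice aged 6 to 8 weeks. One genotype was wild type (WT) and the other carried the AEG-1-C75S mutation on both alleles, abbreviated C75S. The AEG-1 protein, encoded by *Mtdh*, is an ER membrane protein, and C75S replaces a cysteine that can carry a palmitoyl group. Both genotypes came from heterozygote matings, every sample carried the treatment label Control, and RNA was taken 48 h after isolation. There were 3 libraries per genotype. Whether each library stands for its own mouse is not stated in the labels, so p-values measure only the spread between these libraries, which may be technical.

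Proteins bound for secretion or for a membrane carry a signal sequence or transmembrane segment that SRP recognises while the ribosome is still translating. SRP brings the ribosome to its receptor on the ER, and the nascent chain enters or crosses the membrane through the Sec61 channel. Signal peptidase then removes the signal sequence and OST attaches N-linked glycans. A hepatocyte secretes most plasma proteins and therefore uses this route heavily.

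No tested gene of this machinery passed the test between C75S and WT hepatocytes after adjustment. Of the 39 genes, 38 passed the low-count filter, and 0 of the 38 had an adjusted p-value under 0.05 in edgeR's quasi-likelihood test (a count model fitted over all 12741 tested genes, adjusted by Benjamini-Hochberg). Over all tested genes 3.11% were called, 222 higher and 174 lower in C75S. DESeq2 and limma-voom also called 0 of these genes. Without adjustment, 3 genes (7.89%) had p-values under 0.05, *Spcs3*, *Sec61a2* and *Srp19*, against 13.4% of all tested genes. DESeq2 and the fit without C75S replicate 1 each gave 1. The estimates were small as well as uncalled. The log2 fold changes of C75S against WT ran from -0.06 for *Emc1* to 0.22 for *Sec61a2*, with a median of 0.03 beside 0.00 (-0.003) over all tested genes. They were positive for 29 genes (76.3%) and negative for 9, beside 49.1% positive over all tested genes.

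The precision was enough to bound most of these differences between the libraries at hand. Like the p-values, the intervals measure only the spread between these libraries, which may be technical. For 33 of the 38 genes (86.8%) the whole 95% interval lay within 1.25-fold in either direction, against 55.5% of all tested genes. The 5 genes with wider intervals were *Sec61a2*, *Sec11c*, *Rtn4*, *Srp54a* and *Ckap4*. Much of this precision goes with expression level. Among genes with a mean between 10 and 400 CPM (counts per 1000000 counts, on TMM-scaled library sizes), 36 were of this machinery. Their median standard error was 0.056, against 0.07 for the 8203 tested genes in that range, and 91.7% of the 36 intervals lay within 1.25-fold, against 82.2% of the 8203. In that range 3.47% of all tested genes were called. Groups whose libraries did not overlap were found for 5 of the 38 genes (13.2%), against 18.0% of all tested genes. These were *Spcs3*, *Srp9*, *Srp19* and *Lrrc59*, higher in every C75S library, and *Sec11a*, lower in every C75S library.

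**Figure D1:**
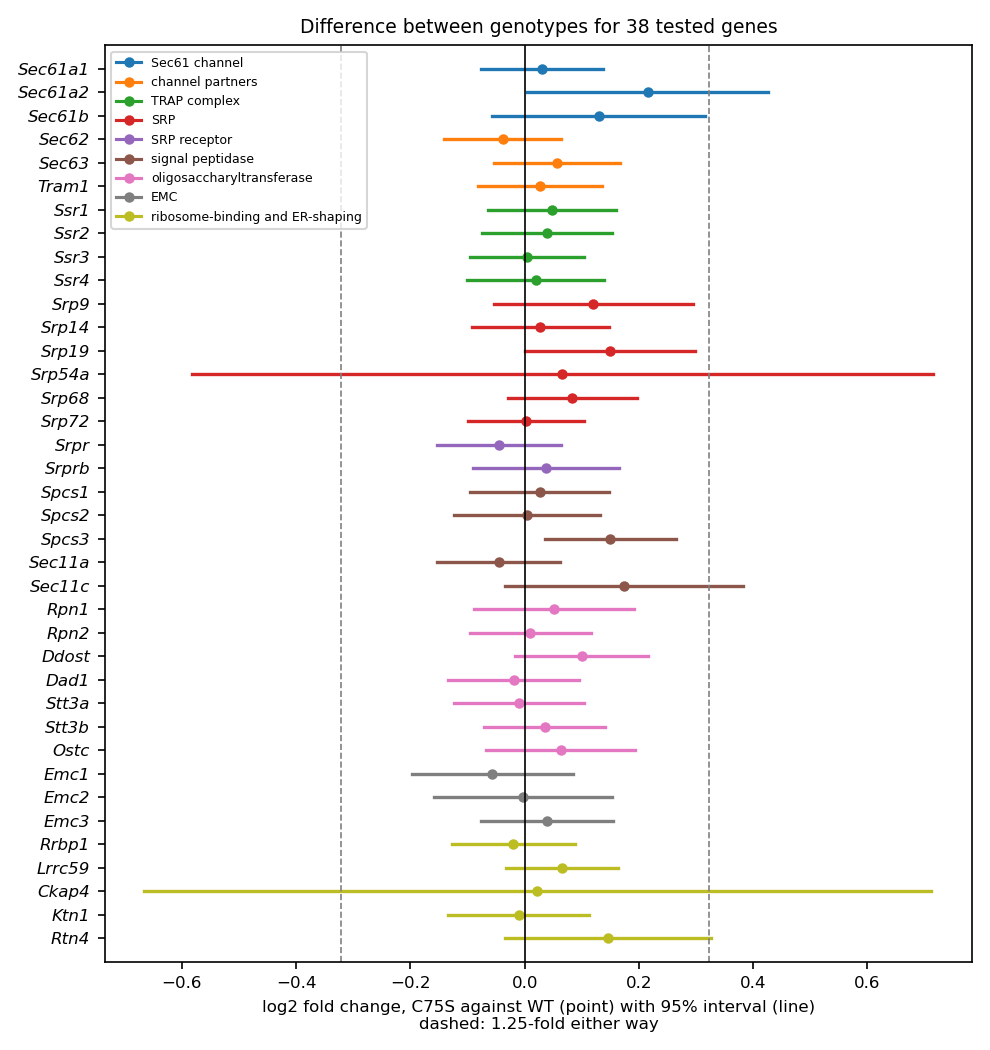
Log2 fold change of C75S against WT (x axis) for each of the 38 tested genes (y axis, coloured by group); points are estimates, lines 95% intervals, and dashed lines 1.25-fold in either direction. The points lie between -0.06 and 0.22, and the longest lines belong to *Srp54a* and *Ckap4*, the 2 tested genes with the lowest levels.

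The machinery's summed level overlapped between the genotypes. The 39 genes together took up 4575, 4554 and 4666 CPM in the C75S libraries and 4384, 4495 and 4623 CPM in the WT libraries, with WT replicate 3 above 2 of the C75S libraries. The group means were 4598 CPM (SD 59.5, n = 3) and 4501 CPM (SD 119.6, n = 3). WT replicate 1 was the low library. It had the lowest value of the 6 libraries for 17 of the 38 genes and lay below the gene's mean for 28 of them, with a median log2 deviation of -0.05 beside 0.00 (0.0006) over all genes. This library also had the most extreme score on the first principal component of all genes (31.64% of the variance), 23.87, with the other WT libraries at 7.41 and 7.74 and the C75S libraries between -16.86 and -10.45. C75S replicate 3 was the high one, below the mean for 6 of the 38 genes. The median log2 fold change of the machinery was 0.02 without WT replicate 1, 0.01 without C75S replicate 3 and 0.06 without WT replicate 3. All 6 libraries held between 16944723 and 21044292 counts on genes.

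**Figure D2:**
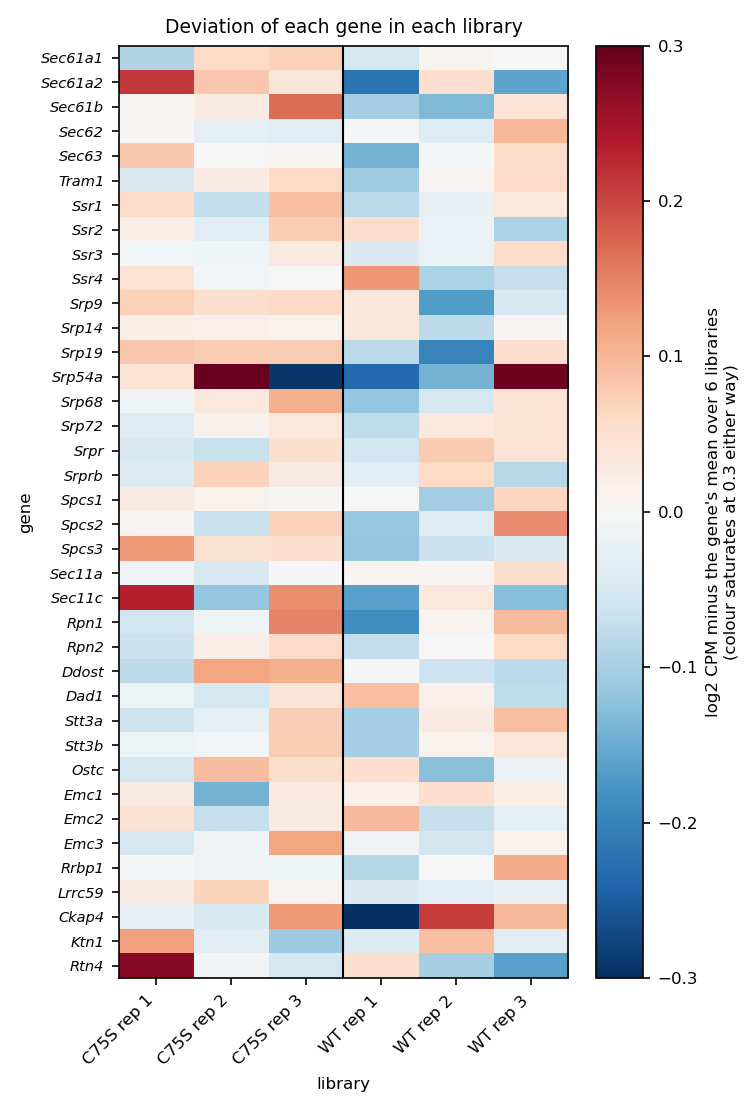
Log2 CPM of each of the 38 tested genes (rows) in each of the 6 libraries (columns), minus the gene's mean over the libraries; the colour saturates at 0.3 either way and the line separates C75S from WT. WT replicate 1 is lowest for 17 of the 38 genes, and the darkest cells include those of the low-count genes *Srp54a* and *Ckap4* and of *Rtn4* in C75S replicate 1.

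Levels were compared between genes as CPM per kilobase of annotated exon. On this scale the machinery was well expressed: its median over the 38 tested genes was 23.4, against 5.20 over all tested genes, and 27 of the 38 lay above the 75th percentile of tested genes. *Lrrc59*, which encodes an ER membrane protein that binds ribosomes, had the highest level at 119 (the 97.9th percentile), followed by the TRAP gene *Ssr3* at 75.2. Both also led with the length of the longest transcript, at 129 and 106. At the other end stood *Sec61g* at 0.216, *Srp54a* at 0.287 and *Ckap4* at 0.399. The order of the genes between depended on the length used: with the longest transcript in place of all annotated exons, *Sec61a1* went from 31.1 to 66.0, *Emc2* from 8.43 to 20.5 and *Tram1* from 50.8 to 54.7.

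**Figure D3:**
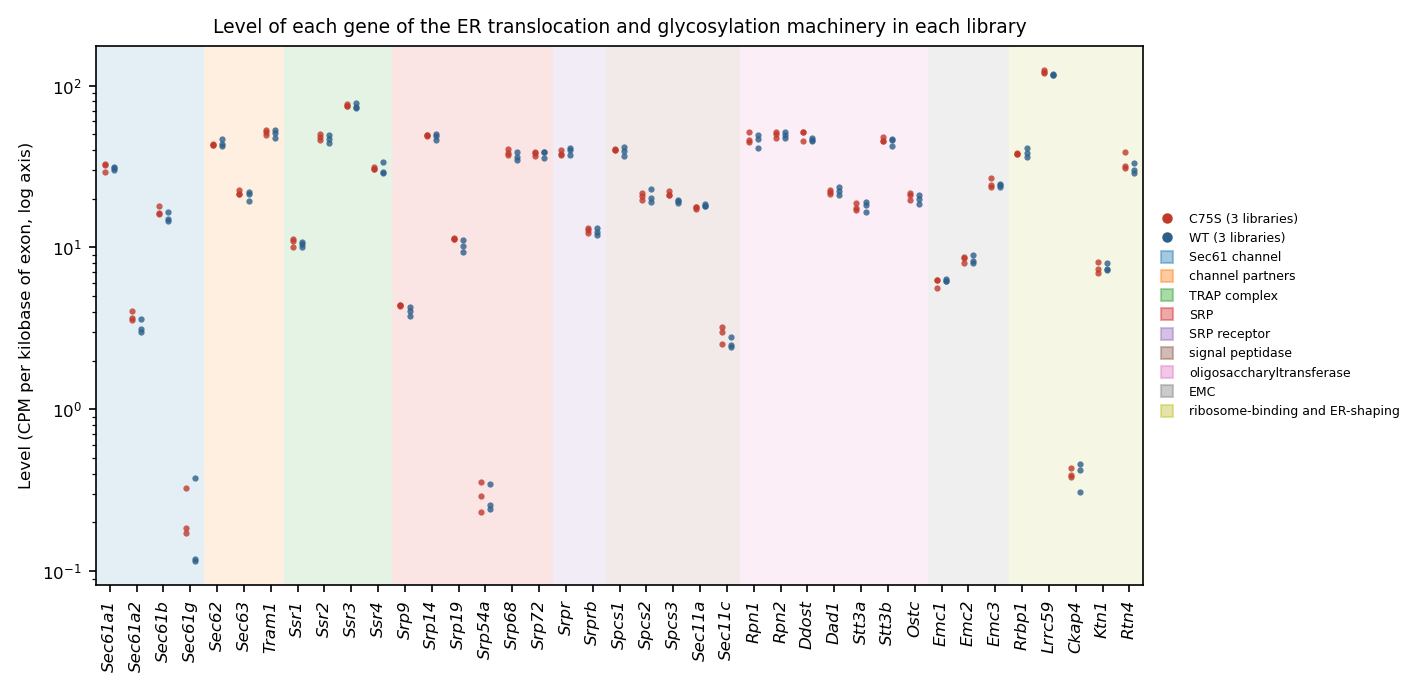
Level of each of the 39 genes in CPM per kilobase of exon (log y axis) in each C75S and WT library (1 point per library); background colours mark the groups. Most genes lie between 10 and 80, *Lrrc59* above 100, and *Sec61g*, *Srp54a* and *Ckap4* below 1.

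SRP was examined first, since it acts first. Its 6 listed genes had positive estimates, from 0.00 for *Srp72* to 0.15 for *Srp19*, and 0 were called. The sign of *Srp14*, *Srp54a* and *Srp72* turned when a library was left out, and that of *Srp72* also without a filter. *Srp19*, which helps the SRP RNA fold for binding of the signal-recognising subunit, was at 41.2, 41.1 and 41.1 CPM in the C75S libraries and 36.9, 33.9 and 40.4 CPM in the WT libraries. The C75S values all lay above the highest WT value, that of WT replicate 3, and the difference had a log2 fold change of 0.15 (SE 0.07, 95% interval 0.00 to 0.30, edgeR adjusted p = 0.365). *Srp9*, which with *Srp14* encodes the pair that slows translation, was at 24.5, 24.2 and 24.3 CPM in the C75S libraries and 23.9, 20.8 and 22.6 CPM in the WT libraries. Its groups did not overlap either, with a log2 fold change of 0.12 (SE 0.08, 95% interval -0.05 to 0.29, edgeR adjusted p = 0.594). *Srp14* (log2 fold change 0.03), *Srp68* (0.08) and *Srp72* (0.00), of which the last pair encode the scaffold of the SRP body, overlapped between the genotypes. Of the receptor, *Srpr* (a GTPase subunit) was at 127, 125 and 135 CPM in the C75S libraries and 126, 138 and 135 CPM in the WT libraries, with a log2 fold change of -0.04 (SE 0.05, 95% interval -0.15 to 0.06, edgeR adjusted p = 0.787). *Srprb*, its membrane anchor, had a log2 fold change of 0.04 (95% interval -0.09 to 0.16), and 20.7% of its exon bases overlap *Gm20425* on the same strand, where reads over both genes count to neither.

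*Srp54a* encodes the subunit that binds signal sequences, and it has near-identical copies. They are *Srp54b* and *Srp54c*, also on chromosome 12. Over the 1515 bases of the *Srp54a* coding sequence in GENCODE M21, *Srp54b* had 0 differences and *Srp54c* had 6 (99.6% identity), and the longest stretch without a difference from *Srp54c* was 500 bases. Bases 471 to 530 of that coding sequence are shown because they hold the first difference, marked by a capital letter.

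Srp54a: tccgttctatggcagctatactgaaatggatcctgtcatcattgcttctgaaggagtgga
Srp54b: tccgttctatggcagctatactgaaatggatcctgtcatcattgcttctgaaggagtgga
Srp54c: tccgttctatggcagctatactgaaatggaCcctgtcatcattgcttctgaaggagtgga

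A read from such a stretch has more than 1 place to align, and reads that align to several places were not counted to genes. *Srp54a* held 27, 40 and 23 counts in the C75S libraries and 27, 28 and 38 in the WT libraries. *Srp54b* held 0 counts in every library, which allows up to 3 counts per library of reads that align to it alone. Reads that lie within its coding sequence align to *Srp54a* too and were not counted. The 0 counts therefore do not bound the level of *Srp54b* RNA. *Srp54c* was at 7.98, 7.73 and 8.45 CPM in the C75S libraries and 9.69, 8.04 and 7.28 CPM in the WT libraries, with a log2 fold change of -0.05 (SE 0.14, 95% interval -0.34 to 0.24, edgeR adjusted p = 0.925). How many reads of the locus were left out as multimapping was not tested. The interval for *Srp54a*, -0.58 to 0.71, was among the widest of the machinery.

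The Sec61 channel is built from an alpha subunit, which forms the pore, and the small beta and gamma subunits. *Sec61a1* (ENSMUSG00000030082, chromosome 6, 88503579 to 88518905 on the minus strand of GRCm38) was at 197, 218 and 220.0 CPM in the C75S libraries and 202, 210.4 and 209 CPM in the WT libraries. C75S replicate 1 was the lowest of all 6 and the other C75S libraries the highest, so the groups overlapped, with a log2 fold change of 0.03 (SE 0.05, 95% interval -0.08 to 0.14, edgeR adjusted p = 0.865). *Sec61a2*, the second alpha gene, had the largest estimate of the machinery. It was at 18.4, 16.8 and 16.3 CPM in the C75S libraries and 13.7, 16.5 and 14.3 CPM in the WT libraries, with a log2 fold change of 0.22 (SE 0.10, 95% interval 0.00 to 0.43, edgeR adjusted p = 0.354). C75S replicate 3 lay below WT replicate 2, and the estimate ranged from 0.16 without WT replicate 1 to 0.30 without WT replicate 2. Per kilobase, *Sec61a2* stood at a mean of 0.120 times *Sec61a1* over the C75S libraries (SD 0.016, n = 3), against 0.105 over the WT libraries (SD 0.009, n = 3). *Sec61a2* shares 909 bases of exon with *Nudt5* on the opposite strand, and the strand-specific counts used here kept those reads apart.

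Both small subunits have annotated near-identical copies. *Sec61b* was at 20.4, 20.7 and 22.8 CPM in the C75S libraries and 18.9, 18.6 and 20.9 CPM in the WT libraries (log2 fold change 0.13, 95% interval -0.06 to 0.32). Of its 564-base principal transcript 82.8% lies in a stretch that is 98.7% identical to the annotated gene *Gm10320*, which held at most 3 counts in a library. *Sec61g* did not pass the filter. It held 8, 9 and 15 counts in the C75S libraries and 6, 6 and 19 in the WT libraries, so neither group stood apart. A stretch of 420 bases of *Sec61g* is 100% identical to *Gm10177*, and copies of *Sec61g* were also annotated as *Gm11575* and *Gm16412*. These copies cover 22.6% of the 1862-base principal transcript. How many reads of either gene were left out as multimapping was not tested.

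The partners of the channel gave narrower answers. *Sec63*, which carries a J domain that recruits the chaperone BiP, was at 198, 187 and 188 CPM in the C75S libraries and 169.6, 187 and 195 CPM in the WT libraries. WT replicate 1 was the lowest, and the log2 fold change of 0.06 (SE 0.05, 95% interval -0.05 to 0.17, edgeR adjusted p = 0.713) came down to 0.00 (0.004) without it. *Sec62*, which works with *Sec63* on chains translocated after translation, had a log2 fold change of -0.04 (95% interval -0.14 to 0.06). *Tram1*, a membrane protein that contacts the entering chain, had 0.03 (-0.08 to 0.13). In the TRAP complex, which sits beside the channel, the 4 estimates lay between 0.00 (*Ssr3*) and 0.05 (*Ssr1*). *Ssr1* was at 115, 105 and 118 CPM in the C75S libraries and 105, 109 and 113 CPM in the WT libraries, with overlapping groups and a log2 fold change of 0.05 (SE 0.05, 95% interval -0.06 to 0.16, edgeR adjusted p = 0.776). *Ssr2* (0.04) and *Ssr4* (0.02) overlapped too. The intervals of all 4 TRAP genes lay within 1.25-fold.

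Signal peptidase held the gene with the smallest p-value of the machinery. *Spcs3* (ENSMUSG00000054408, chromosome 8, 54520433 to 54529998 on the minus strand of GRCm38), an accessory subunit needed for cleavage, was at 77.0, 72.8 and 73.0 CPM in the C75S libraries and 65.0, 67.4 and 68.4 CPM in the WT libraries. Every C75S library lay above every WT library. The difference was a log2 fold change of 0.15 (SE 0.06, 95% interval 0.04 to 0.26, edgeR adjusted p = 0.178), which did not pass the threshold. Its estimate stayed between 0.12 and 0.17 when any 1 library was left out. The catalytic subunits, *Sec11a* and *Sec11c*, had estimates of opposite sign. *Sec11a* was at 81.8, 80.0 and 82.5 CPM in the C75S libraries and 83.2, 83.2 and 85.7 CPM in the WT libraries, with a log2 fold change of -0.05 (SE 0.05, 95% interval -0.15 to 0.06, edgeR adjusted p = 0.777). *Sec11c* was at 21.8, 17.1 and 20.4 CPM in the C75S libraries and 16.6, 19.0 and 17.0 CPM in the WT libraries, with a log2 fold change of 0.17 (SE 0.10, 95% interval -0.03 to 0.38, edgeR adjusted p = 0.491). C75S replicate 2 fell among the WT libraries for *Sec11c*. Per kilobase, *Sec11c* stood at a mean of 0.165 times *Sec11a* over the C75S libraries (SD 0.018, n = 3), against 0.141 over the WT libraries (SD 0.012, n = 3). The ratios were 0.181, 0.145 and 0.168 against 0.135, 0.154 and 0.134, and they overlapped. *Spcs1* (0.03) and *Spcs2* (0.00) encode the remaining accessory subunits.

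OST transfers the preassembled glycan to asparagine. *Stt3a* encodes the catalytic subunit that acts on chains still entering the channel, and *Stt3b* the one that acts on sites passed over. Their log2 fold changes were -0.01 (95% interval -0.12 to 0.10) and 0.03 (-0.07 to 0.14). *Stt3a* per kilobase stood at 0.379, 0.386 and 0.391 of *Stt3b* in the C75S libraries and 0.391, 0.395 and 0.406 in the WT libraries. The highest C75S ratio lay just below the lowest WT ratio, with means of 0.385 (SD 0.006, n = 3) and 0.398 (SD 0.008, n = 3). The ratio over all libraries was 0.392 with these lengths and 0.597 with the longest transcripts. *Ddost*, a structural subunit, had the smallest p-value in OST. It was at 96.1, 110.1 and 109 CPM in the C75S libraries and 101, 97.3 and 96.2 CPM in the WT libraries, with a log2 fold change of 0.10 (SE 0.06, 95% interval -0.02 to 0.22, edgeR adjusted p = 0.476). C75S replicate 1 lay just below the lowest WT library while the other C75S libraries lay above them. Without that library the estimate was 0.16 (edgeR adjusted p = 0.209). The ribophorins, which hold OST at the ribosome-bound membrane, had log2 fold changes of 0.05 (*Rpn1*) and 0.01 (*Rpn2*). *Rpn1* was at 202, 208 and 233 CPM in the C75S libraries and 185, 212 and 224 CPM in the WT libraries. *Dad1* (-0.02) and *Ostc* (0.06), which joins the STT3A form of OST to the channel, overlapped between genotypes. All 7 OST intervals lay within 1.25-fold.

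EMC inserts certain transmembrane segments on its own. *Emc1* had the most negative estimate of the machinery. It was at 41.9, 37.3 and 41.9 CPM in the C75S libraries and 41.6, 42.6 and 41.7 CPM in the WT libraries, where C75S replicate 2 alone stood low, and the log2 fold change of -0.06 (SE 0.07, 95% interval -0.20 to 0.08, edgeR adjusted p = 0.791) became 0.00 (-0.0002) without that library. *Emc2* had a log2 fold change of -0.002 (95% interval -0.16 to 0.15) and *Emc3* 0.04 (-0.08 to 0.16).

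The ribosome-binding and ER-shaping genes held the highest and some of the lowest levels. *Lrrc59* was at 372, 383 and 368 CPM in the C75S libraries and 355, 358 and 361 CPM in the WT libraries. The C75S libraries all lay above the WT libraries, and the difference was small, a log2 fold change of 0.07 (SE 0.05, 95% interval -0.03 to 0.16, edgeR adjusted p = 0.609). *Rrbp1*, the ribosome receptor p180, was at 335, 333 and 332 CPM in the C75S libraries and 316, 336 and 362 CPM in the WT libraries. Its 3 C75S libraries lay inside the range of the WT libraries (log2 fold change -0.02, 95% interval -0.13 to 0.09). *Rtn4*, a reticulon that bends ER membrane into tubules, was at 272, 223 and 217 CPM in the C75S libraries and 233, 209.6 and 201 CPM in the WT libraries. C75S replicate 1 stood above the rest. The log2 fold change of 0.15 (SE 0.08, 95% interval -0.04 to 0.33, edgeR adjusted p = 0.503) became 0.04 without that library. *Ktn1*, the kinesin-binding protein kinectin, had -0.01 (95% interval -0.13 to 0.11). *Ckap4*, which encodes the luminal spacer CLIMP-63 of ER sheets, was at 1.21, 1.19 and 1.34 CPM in the C75S libraries and 0.95, 1.41 and 1.31 CPM in the WT libraries, near the filter limit. No copy of *Ckap4* was found among annotated transcripts, and its interval of -0.67 to 0.71 left the comparison undecided.

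Promoters of the machinery were searched for 3 short elements that ER stress factors are known to recognise, because such factors raise parts of the secretory pathway together. The RefSeq promoter windows of GRCm38.p6 (250 bases before to 50 after a start) held 30 of the 39 genes. The ER stress response element (CCAAT, 9 bases, then CCACG, on either strand) was in 0 of the 30 and in 0.137% of 27025 genes. The element ATTGG, 1 base, then CCACG was in 0 of the 30 and in 0.044% of all genes. TGACGTGG was in 1 of the 30, *Lrrc59*, and in 0.714% of all genes. By the same search, 7 of 18 glycoprotein-folding genes (38.9%) held the first element, as did 1 of 18 genes of dolichol-linked glycan synthesis (5.56%). The second element was in 1 of 17 further subunits of the same machines (5.88%) and in 1 of the 18 folding genes. No match means only that these letters are not in this window. The match upstream of *Lrrc59* (positions -15 to -8 before the start) is shown beside those of *Hspa5* (BiP, positions -65 to -47) and *Derl3* (positions -156 to -138, on the opposite strand), 2 genes outside the machinery. Capitals mark the match, and each stretch ends before the transcription start.

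Lrrc59 (chr11:94629717-94629776, plus strand): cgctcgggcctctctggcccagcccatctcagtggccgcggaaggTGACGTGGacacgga
Hspa5 (chr2:34771980-34772088, plus strand): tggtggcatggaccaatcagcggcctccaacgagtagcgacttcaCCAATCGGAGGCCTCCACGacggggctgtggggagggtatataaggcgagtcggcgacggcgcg
Derl3 (chr10:75893197-75893305, plus strand): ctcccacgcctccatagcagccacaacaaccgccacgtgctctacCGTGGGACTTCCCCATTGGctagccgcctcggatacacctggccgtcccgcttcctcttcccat

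Neighbouring parts of the pathway were set beside the machinery in the same test. Among 19 tested further subunits of the same machines 0 were called (median log2 fold change 0.02). *Tusc3*, an OST oxidoreductase, had the largest estimate of these, at 13.5, 12.5 and 12.7 CPM in the C75S libraries and 8.21, 10.8 and 12.1 CPM in the WT libraries (log2 fold change 0.31, edgeR adjusted p = 0.247). Its alternative, *Magt1*, had a log2 fold change of 0.00 (-0.001). *Magt1* per kilobase stood at 2.10, 2.30 and 2.38 times *Tusc3* in the C75S libraries and 3.18, 2.83 and 2.54 times in the WT libraries, without overlap. Of 6 tested genes of tail-anchor insertion and 22 of dolichol-linked glycan synthesis, which builds the glycan that OST transfers, 0 were called, with medians of 0.03 and -0.02. Of 9 other ER-shaping genes 0 were called, with a median of -0.09. Of these 9, 7 were negative, beside 6482 of all 12741 tested genes. Before adjustment, 3, 1, 0 and 2 genes of these 4 lists had p-values under 0.05 in edgeR, beside 13.4% of all tested genes.

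The chaperones and folding enzymes that receive the chain after the channel had a median of 0.10 (0.096) over 19 tested genes, with 0 called. Of the 19 estimates 17 were positive, beside 49.1% over all tested genes. Before adjustment 6 had p-values under 0.05 in edgeR, beside 13.4% of all tested genes. *Hspa5* was at 833, 783 and 909 CPM in the C75S libraries and 700.4, 753 and 805 CPM in the WT libraries (log2 fold change 0.16, edgeR adjusted p = 0.192). *Calr*, the lectin chaperone calreticulin, was at 787, 807 and 875 CPM in the C75S libraries and 665, 709 and 797 CPM in the WT libraries (log2 fold change 0.19, edgeR adjusted p = 0.125). *Calr* passed the threshold with library-size scaling (0.0431), without a filter (0.0186), with replicate number as a block (0.0304) and without WT replicate 3 (0.0273). Of 24 genes for secreted plasma proteins, the cargo of the machinery, 6 were called higher and 1 lower, beside 3.11% called over all tested genes. The median was 0.00 (0.0045), with 12 estimates positive and 12 negative. The list's summed level was 112367, 122911 and 129226 CPM in the C75S libraries and 123647, 132528 and 131588 CPM in the WT libraries. These sums overlapped. *Apoa2*, an HDL apolipoprotein, rose to 483, 473 and 549 CPM in C75S from 370.2, 386 and 350.0 CPM in WT, a log2 fold change of 0.45 (SE 0.06, 95% interval 0.33 to 0.56, edgeR adjusted p = 2.91e-05). *Plg*, plasminogen, rose to 156, 174 and 176 CPM from 117, 123 and 135 CPM, a log2 fold change of 0.44 (SE 0.06, 95% interval 0.32 to 0.56, edgeR adjusted p = 3.56e-05). *Fgg*, fibrinogen gamma, rose to 321, 376 and 348 CPM from 273, 255 and 276 CPM, a log2 fold change of 0.38 (SE 0.06, 95% interval 0.27 to 0.49, edgeR adjusted p = 0.000133). The gene called lower, *Ahsg* (fetuin-A), was at 6699, 6606 and 7059 CPM in the C75S libraries and 7863, 8056 and 7742 CPM in the WT libraries, a log2 fold change of -0.22 (SE 0.06, 95% interval -0.33 to -0.10, edgeR adjusted p = 0.0341). Its call was lost, with adjusted p-values of 0.0717 to 0.215, in each fit without 1 library except that without C75S replicate 3. The cargo count was 4 without C75S replicate 2 or WT replicate 2. Whether cargo and machinery differ in their response was not tested.

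**Figure D4:**
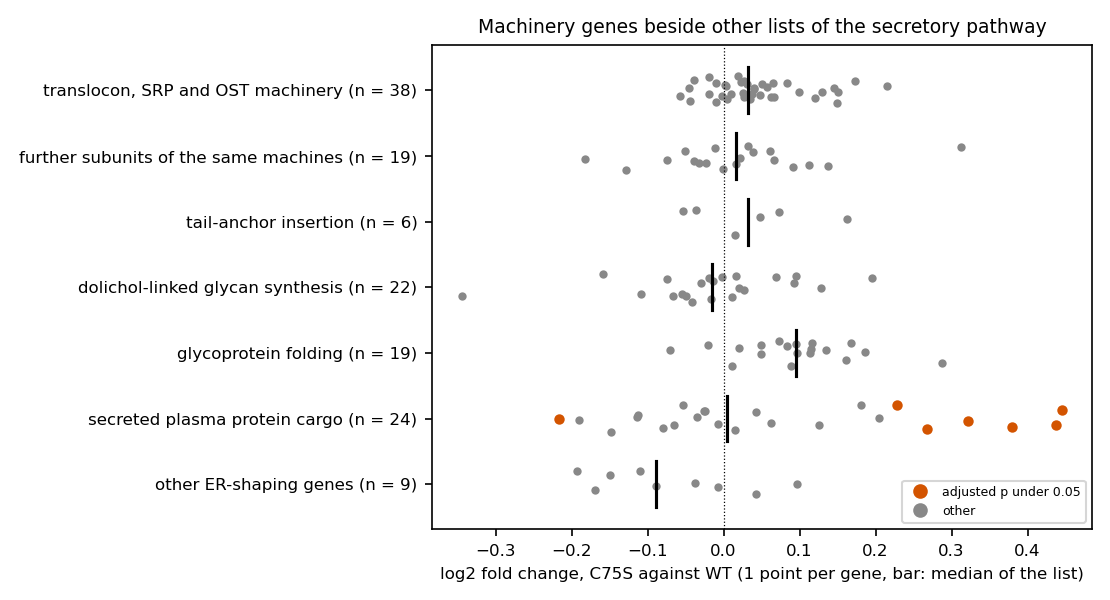
Log2 fold change of C75S against WT (x axis), 1 point per tested gene, for the machinery and 6 further lists (y axis); bars are medians and orange points passed an adjusted p-value of 0.05. Called genes appear in the list of secreted plasma proteins, 6 to the right of 0 and 1 to the left, and none among the 38 machinery genes.

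*Mtdh*, the gene that carries the C75S change, was at 212, 192 and 196 CPM in the C75S libraries and 198, 201 and 191 CPM in the WT libraries, with a log2 fold change of 0.02 (SE 0.05, 95% interval -0.08 to 0.13, edgeR adjusted p = 0.909). A gene count does not read the changed codon. Of 12 hepatocyte markers 12 were tested, with summed levels of 67226 to 80171 CPM in C75S and 75374 to 83129.5 CPM in WT. Most of this sum was *Alb* (log2 fold change -0.15, edgeR adjusted p = 0.347). Of the 12 estimates 6 were positive and 6 negative, with a median of 0.01. *Cyp2e1* was the called marker (log2 fold change 0.31, edgeR adjusted p = 0.00908, and 0.065 without WT replicate 3). Among markers of other liver cells, 5 of 8 cholangiocyte genes were tested and 1 was called, *Krt19* (log2 fold change 0.80, edgeR adjusted p = 0.00151). The summed level of the 8 genes was 181 to 235 CPM in C75S and 161 to 169 CPM in WT, while *Cftr* of that list was at 0 in every library. In such bulk samples fewer cells of a type and less RNA per cell cannot be told apart. For 10 endothelial genes the sums were 35.2 to 45.1 CPM in C75S and 34.3 to 44.5 CPM in WT, most of it *Stab2* (log2 fold change -0.09). Of the 8 tested endothelial genes 0 were called and 6 had positive estimates, with a median of 0.29. *Lyve1* (0.85, edgeR adjusted p = 0.131), *Pecam1* (0.70, edgeR adjusted p = 0.208) and *Kdr* (0.69, edgeR adjusted p = 0.521) were higher in every C75S library than in any WT library. Groups did not overlap, in either direction, for 18.0% of all tested genes. *Kdr* held only 13, 19 and 20 counts in the C75S libraries and 15, 10 and 10 in the WT libraries. Beside *Stab2*, *Fcgr2b* had a negative estimate (-0.41, edgeR adjusted p = 0.673). For 9 stellate cell genes the sums were 54.7 to 71.5 and 70.2 to 92.7 CPM, nearly all of it *Reln* (log2 fold change -0.36, edgeR adjusted p = 0.394, and 0.0385 by DESeq2), and for 10 Kupffer cell genes 96.6 to 140.5 and 104 to 135 CPM, nearly all of it *Cd68*. Of the Kupffer cell genes 2 were tested, *Cd68* and *Csf1r*, with log2 fold changes of 0.02 and 0.15. The defining markers *Clec4f*, *Cd5l*, *Adgre1* and *Timd4* were at means of 0.063 CPM or less in both genotypes. *Marco* held 6 counts in each C75S library and 1, 0 and 2 in the WT libraries. *C1qa* leaned the other way, with 5, 4 and 2 counts in the C75S libraries and 15, 18 and 5 in the WT libraries. So did *Vsig4*, with 2, 2 and 0 against 5, 3 and 0, while *C1qb* held 11, 8 and 7 against 21, 4 and 7. Of 8 genes listed for plasma cells, which have a very large ER, and for B cells, 1 was tested and called, *Derl3*. Its values are given among the other observations. What part these cells have in the machinery's values was not tested.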

How the data were processed

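The deposited files are raw read counts per Ensembl gene in the layout of the STAR aligner, with 1 unstranded column and 1 per strand. Per the submitters' processing notes, Trim Galore 0.6.6, STAR 2.7.9a and edgeR 3.36.0 were used with mm10 and GRCm38. The annotation release is not given in the sources used here. Per the labels' protocols, library preparation used Illumina's TruSeq RNA kit. Reverse-strand counts exceeded forward-strand counts by 32.9 to 33.9 times, so the reverse-strand column was used. The 4 summary rows were left out. Multimapping reads, 17.98% to 18.54% of each library, were not counted to genes, which can lower genes with near-identical copies.

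Genes were filtered with filterByExpr (minimum count 10, minimum total 15), leaving 12741, and scaled by TMM. The test was the robust, two-sided quasi-likelihood test of edgeR 4.0.16 in R 4.3.3, with no term beside genotype, adjusted by Benjamini-Hochberg at 0.05. The standard error is the log2 fold change divided by the square root of F, and 95% intervals use the t distribution at the fit's degrees of freedom. The test was checked on simulated data with 200 genes changed. Alternatives included DESeq2 1.42.0 and limma 3.58.1. Positions are those of GENCODE M21 (GRCm38). Copies were sought with BLAST 2.17.0 at 97% identity over at least 75 bases. All 39 symbols matched, and of the context genes 1 (*Get1*) matched no single row. The members and lists were chosen with earlier results of these data known. Values per library are given for the member with the smallest p-value in each group, those with the highest and lowest levels, those not tested, and others chosen after their values were seen. From other lists up to 3 called genes by p-value are named, with *Tusc3*, *Srp54c*, *Ahsg*, *Atl2*, *Hspa5*, *Calr*, *Derl3* and the marker genes not called added after their values were seen.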

Additional observations from a re-analysis of the deposited data

How the results depend on the processing

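The count of called machinery genes was 0 under each of the 15 alternatives run: 9 that kept all 6 libraries (DESeq2, limma-voom, 3 other scalings, no filter, a 1 CPM filter, unstranded counts and the replicate block) and 6 that left out a library. The lowest adjusted p-value of any machinery gene over these fits was 0.131. The unadjusted count of 3 was 1 under DESeq2 and without C75S replicate 1. Of 570 values recomputed for single machinery genes, 41 changed sign, 36 of them where a library was left out. No such gene had a main estimate above 0.07 (0.0658) in size, and each was uncalled, so their directions are undetermined. Over the fits that left out 1 library, the estimates of these 19 genes, and of 6 genes outside the machinery whose sign also turned, ranged as follows: *Sec62* -0.0673 to 0.0035, *Tram1* -0.017 to 0.0637, *Ssr3* -0.0149 to 0.0346, *Ssr4* -0.0227 to 0.0952, *Srp14* -0.004 to 0.0524, *Srp54a* -0.1073 to 0.2421, *Srp72* -0.0326 to 0.0228, *Spcs1* -0.0172 to 0.0656, *Spcs2* -0.0493 to 0.0795, *Rpn1* -0.0226 to 0.1135, *Rpn2* -0.0222 to 0.0433, *Dad1* -0.0615 to 0.0234, *Stt3a* -0.0606 to 0.0344, *Stt3b* -0.0047 to 0.0625, *Emc2* -0.0359 to 0.0495, *Emc3* -0.012 to 0.0734, *Rrbp1* -0.0643 to 0.0333, *Ckap4* -0.1303 to 0.1377, *Ktn1* -0.0768 to 0.0397, *Cd68* -0.1113 to 0.1563, *Csf1r* -0.2201 to 0.3885, *Magt1* -0.0724 to 0.0391, *Mtdh* -0.0219 to 0.05, *Srp54c* -0.1393 to 0.0732 and *Stab2* -0.2491 to 0.0989. With library-size scaling *Stt3a*, *Emc2* and *Ktn1* turned to 0.0019, 0.0093 and 0.0031, and without a filter *Srp72* and *Spcs2* turned to -0.0015 and -0.0003. *Magt1* turned to 0.0109 with library-size scaling, 0.0029 with limma-voom and 0.0001 with the replicate block. The cause was not tested.

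The count over all genes lay between 201 and 355 when a library was left out (201 without WT replicate 2, 246 without WT replicate 3, 253 without C75S replicate 1), against 396. Replicate numbers gave no sign of paired libraries: deviations of same-numbered libraries correlated at 0.017, -0.04 and 0.025 across 12741 genes. Differently numbered libraries correlated at -0.044 to 0.024. With so few libraries these correlations cannot exclude pairing. The replicate block gave 480 called genes and 0 of the machinery. For glycoprotein folding, 1 gene was called with library-size scaling, without a filter, and with the replicate block, and 0 to 1 when a library was left out, the gene being *Calr*. For plasma protein cargo the count was 4 to 8 and for other ER-shaping genes 0 to 1 (*Atl2*, without C75S replicate 3). Ratios between genes moved with the length used: with the longest transcript *Sec61a2* to *Sec61a1* was 0.0992, *Stt3a* to *Stt3b* 0.597 and *Magt1* to *Tusc3* 2.05, and unstranded counts gave 0.093 for *Sec61a2* to *Sec61a1*. The same length applies to every library, so it leaves comparisons between genotypes as they are. *Sec61g*, *Srp54a* and *Ckap4* had the fewest counts of the machinery per kilobase.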

Other observations

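*Derl3*, a factor of ER-associated degradation, which returns misfolded proteins from the ER to the cytosol, was higher in C75S. It was at 4.31, 2.09 and 4.76 CPM in the C75S libraries and 1.04, 0.78 and 0.922 CPM in the WT libraries, and every C75S library lay above every WT library. The difference was a log2 fold change of 2.00 (SE 0.32, 95% interval 1.35 to 2.65, edgeR adjusted p = 0.000322), and its estimate ranged from 1.78 to 2.30 over the alternatives run, with a highest adjusted p-value of 0.00698. *Derl3* had been listed as a plasma cell marker. Of the other genes of that list, *Jchain*, *Mzb1* and *Cd79a* were at means of 0.056, 0.051 and 0.032 CPM in C75S and 0.016, 0 and 0 CPM in WT. The part of plasma cells in the *Derl3* values was not tested. It is described after its value was seen.

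Reads on the strand opposite to *Rrbp1* made up 10.97% of the reads counted on either strand of that gene. The median over the 38 tested machinery genes was 0.05%, and the next highest was *Sec61a2* at 0.89%. The opposite-strand counts of *Rrbp1* were 740, 838 and 878 in the C75S libraries and 922, 695 and 865 in the WT libraries, so the genotypes overlapped. No GENCODE M21 gene with an exon overlapping those of *Rrbp1* was found, and the origin of these reads was not tested. The comparison of *Rrbp1* itself used the gene's own strand.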
